A study of Mus musculus with 12 samples.

Results

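The genes described here are 7 genes of the INK4 and CIP cell cycle inhibitors, chosen by symbol: the INK4 genes Cdkn2a, Cdkn2b, Cdkn2c and Cdkn2d, the CIP genes Cdkn1a and Cdkn1b, and Cdkn3, a phosphatase gene grouped with them by name. They were followed in RNA-seq libraries of hair follicle stem cells (HFSCs) sorted from the back skin of C57BL/6J mice by a gate for EpCAM and CD34, for a high level of α6-integrin and for the lack of Sca1. All 7 had a row among the 21915 genes of the hair cycle libraries, and 6 had a row among the 17885 genes of the control and Eed iKO libraries, where Cdkn2a was not analysed. The hair cycle libraries came from wildtype mice, 3 in anagen, the growth phase, at postnatal days 28 to 30, and 3 in telogen, the resting phase, at postnatal days 50 to 52, so phase and age cannot be told apart. The other 6 libraries came from mice at postnatal day 70, 3 labelled control and wildtype and 3 labelled Eed KO and Eed -/-. By the methods these Eed iKO mice were K15-CrePGR: Eed fl/fl, with topical RU-486 each day for a week. Control mice received the ethanol vehicle, so loss of Eed and the drug cannot be told apart. K15-CrePGR drives Cre activity in the bulge, which includes cells of the hair germ, and no gate selected the recombined cells.

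CDK inhibitors hold cells in G1. INK4 proteins bind the D cyclin kinases CDK4 and CDK6 and keep them from phosphorylating the retinoblastoma proteins, whereas CIP proteins bind cyclin E, cyclin A and cyclin B kinases. Cdkn3 encodes a dual-specificity phosphatase that removes the activating phosphate of CDK2 and CDK1. HFSCs rest for most of the hair cycle and divide at the onset of anagen, and the locus that holds Cdkn2a and Cdkn2b is a textbook target of Polycomb repression.

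The targeted gene was read first. Eed, which encodes a core subunit of PRC2, stood at 1084, 1249 and 950.2 normalized counts in the libraries of the control group and at 933.3, 1361 and 1001 in those labelled Eed iKO, and the groups overlapped (log2 fold change -0.01 with a standard error of 0.22 and a limma adjusted p of 0.993). Every direction given for Eed iKO below therefore follows the labels. A sum over a whole gene does not show whether part of a transcript is lost, and EED protein and its histone mark were not analysed here. The control and Eed iKO values were whole multiples of 1 constant per library and gave back 33269583 to 57063586 reads, while no depth could be read for anagen and telogen. None of the 11 bulge stem cell markers, Cd34 and Krt15 among them, was at 0 in any library. Between control and Eed iKO, 0 of the 11 were called by limma, with a median log2 fold change of 0.14. The values did not overlap for 7 of the 11, as against 20.2% of all genes tested. Krt14 was called higher in Eed iKO with the replicate number as a block, without Eed iKO replicate 3 and with DESeq2 on recovered reads. Between telogen and anagen the gate markers themselves moved, with Cd34 lower in anagen and Itga6 higher, the latter a call lost without anagen replicate 1 or 2. For control and Eed iKO the authors describe biological replicates from more than 1 litter, and for anagen and telogen they give no litter. Both sexes were used in the study, and the p-values measure the spread between these libraries. In sorted bulk RNA, a change in the share of cells that express a gene and a change in RNA per cell cannot be told apart.

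Anagen and telogen were compared to see how the inhibitor genes differ between activated and resting HFSCs. Cdkn2c and Cdkn3 were called higher in anagen, each by a log2 fold change of about 4, and none of the 7 genes was called higher in telogen. Of the 7 genes, 6 passed the filter on low values and 2 of these 6 were called at an adjusted p under 0.05. Across all 13457 genes tested the share called was 11.6%, with 7.22% higher in anagen and 4.35% higher in telogen. Both called genes also passed the thresholds of the methods, which 5.1% of genes passed. These are a p under 0.05, read here as unadjusted, and a log2 fold change beyond 2 in either direction. The values of the groups did not overlap for Cdkn2c, Cdkn3 and Cdkn1b, 3 of the 6 genes, as against 33.3% of all genes tested. The median log2 fold change over the 6 genes was 0.35, and over all genes tested it was 0.01.

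**Figure D1:**
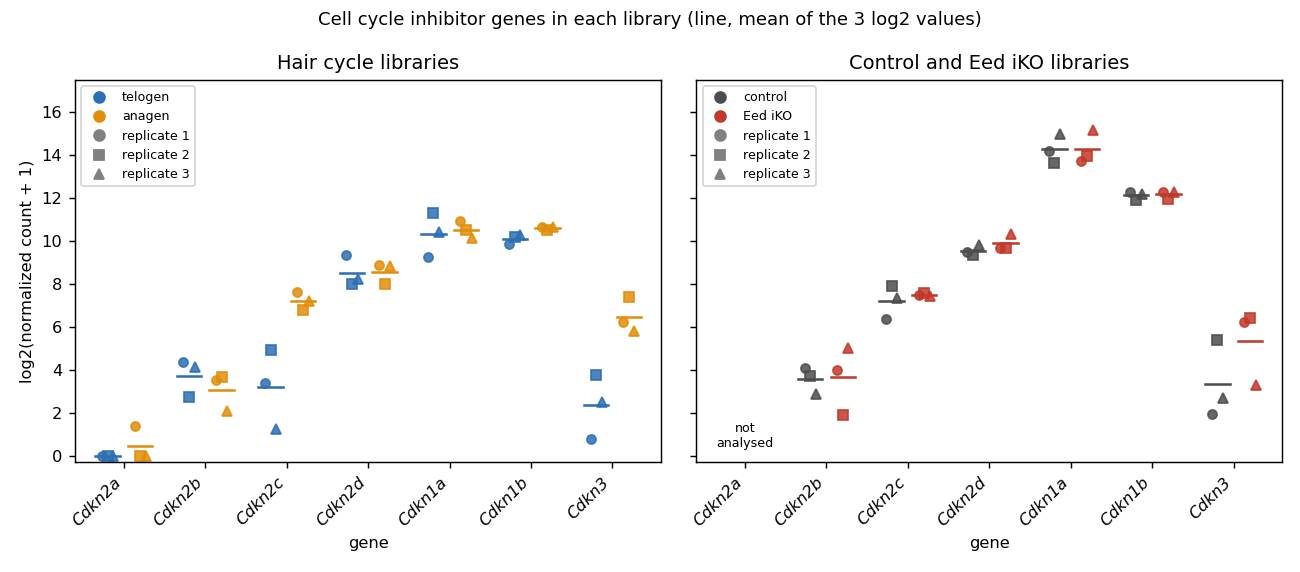
Log2(normalized count + 1) of each inhibitor gene (x axis) in every library, with the hair cycle libraries on the left and the control and Eed iKO libraries on the right. Symbols mark the replicate, and lines the mean of the 3 log2 values of a group. Cdkn2c and Cdkn3 lie higher in all 3 anagen libraries than in any telogen library, and the control and Eed iKO points overlap for each gene. The panels were normalized separately.

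Cdkn2c encodes the INK4 protein p18 and lies on the minus strand of chromosome 4 (GRCm38, chr4:109660876-109667189). It had normalized counts of 9.41, 29.1 and 1.38 in telogen replicates 1, 2 and 3, with a mean of 13.3 ± 14.3 (SD, n = 3). In anagen replicates 1, 2 and 3 it had 192, 108.9 and 145, with a mean of 148.6 ± 41.6 (SD, n = 3). The lowest anagen library thus held more than the highest telogen library, and the telogen libraries differed widely among themselves. The log2 fold change on the log2(normalized count + 1) scale was 4.01 (standard error 0.81, 95% interval 2.22 to 5.79, limma adjusted p = 0.0103), and the ratio of the means was 11.2. The adjusted p was 0.0610, with a log2 fold change of 3.80, when anagen replicate 1 was left out, and the call was then lost.

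Cdkn3 lies on the plus strand of chromosome 14 (GRCm38, chr14:46760541-46771669). Its normalized counts were 0.719, 12.4 and 4.70 in telogen, with a mean of 5.93 ± 5.92 (SD, n = 3), and 72.5, 164.7 and 54.2 in anagen, with a mean of 97.1 ± 59.2 (SD, n = 3). All 3 anagen libraries stood above all 3 telogen libraries, and anagen replicate 2 was well above the other anagen libraries. The fitted log2 fold change was 4.11 (standard error 0.81, 95% interval 2.32 to 5.90, limma adjusted p = 0.00918). Without anagen replicate 2 the log2 fold change was 3.65 and the adjusted p was 0.0642, and the call was lost. Leaving out any other single library kept it, as did leaving out any library but anagen replicate 1 for Cdkn2c.

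Cdkn2c and Cdkn3 each reached a normalized count of 10 in the 3 anagen libraries and in 1 telogen library, so they passed the filter of the test through the group in which they were high. With telogen values this near 0, the size of the fold depends on the pseudocount, and with a pseudocount of 0.1 the log2 fold changes were 4.28 for Cdkn2c and 4.56 for Cdkn3.

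The other INK4 genes were not called. Cdkn2d, which encodes p19 INK4d (chr9:21288410-21291407, minus strand), had normalized counts of 648.4, 254.9 and 295.3 in telogen and 472.5, 249.4 and 459.8 in anagen. The groups overlapped, and their difference of 0.05 on the log2 scale had a 95% interval from -0.81 to 0.91 (limma adjusted p = 0.948). Cdkn2b, which encodes p15 (chr4:89306299-89311039, minus strand), was low throughout, with 19.2, 5.56 and 16.4 in telogen and 10.3, 11.6 and 3.14 in anagen. Its log2 fold change of -0.66 had a 95% interval from -2.42 to 1.11 (limma adjusted p = 0.636), wide enough to hold large changes in either direction. Cdkn2a, which encodes p16 INK4a and, in another reading frame, ARF (chr4:89274471-89294653, minus strand), had a normalized count of 1.57 in anagen replicate 1 and was listed at 0 in the other 5 hair cycle libraries. It did not enter the test, and a value for the whole gene does not separate its 2 products.

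Neither CIP gene was called, Cdkn1b with a small difference in which the groups did not overlap and Cdkn1a with a wide spread within telogen. Cdkn1b, which encodes p27 (chr6:134920401-134925513, plus strand), had normalized counts of 911.4, 1173 and 1226 in telogen and 1616, 1435 and 1609 in anagen. Every anagen library was above every telogen library, in a range much narrower than for Cdkn2c. Anagen over telogen, the log2 fold change was 0.50 (standard error 0.20, 95% interval 0.06 to 0.94), and the limma p of 0.0292 became 0.133 after adjustment, so the gene was not called.

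Cdkn1a, which encodes p21, an inhibitor that p53 induces, lies on chromosome 17 (chr17:29090976-29100727, plus strand), and 7.68% of its exon bases are shared with an annotated antisense gene whose reads cannot be told apart without strand. Its normalized counts were 603.8, 2484 and 1374 in telogen and 1924, 1433 and 1114 in anagen. Telogen held both the lowest and the highest library. A log2 fold change of 0.19 was fitted, with a 95% interval from -0.73 to 1.12 (limma adjusted p = 0.804), which turned to -0.35 without telogen replicate 1. The summed normalized count of 7 markers of interfollicular epidermis and sebaceous gland, none of them at 0, was 9721, 17410 and 8260 in telogen and 14452, 9696 and 5795 in anagen. Telogen replicate 2 was thus highest and anagen replicate 3 lowest in this sum, to which abundant genes add most. The mean log2(normalized count + 1) of the same markers was likewise highest in telogen replicate 2, at 8.31, but lowest in telogen replicate 3, at 7.22. The part of these markers in the Cdkn1a values was not tested.

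**Figure D2:**
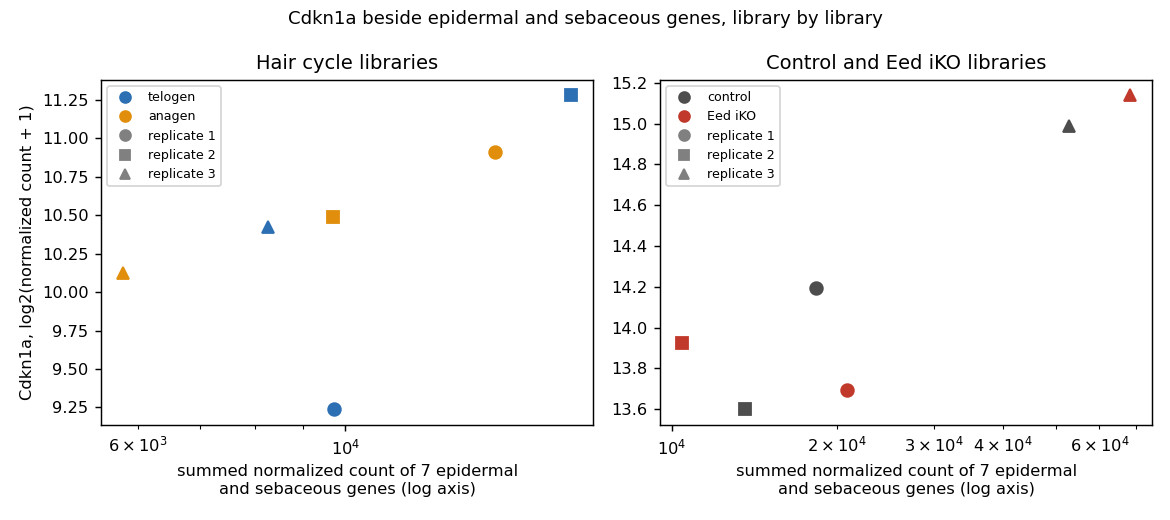
Log2(normalized count + 1) of Cdkn1a (y axis) against the summed normalized count of the 7 epidermal and sebaceous markers (x axis, log scale) in each hair cycle library (left) and each control or Eed iKO library (right). Telogen replicate 2 on the left and both replicates 3 on the right are highest on both axes, and telogen replicate 1 falls below the other libraries in Cdkn1a.

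The third CIP gene, Cdkn1c, which encodes p57, is not among the 7 genes but belongs to the same protein family (chr7:143458339-143461050, minus strand). It had normalized counts of 55.3, 306.5 and 138.3 in telogen and 24.2, 52.6 and 6.23 in anagen. All anagen libraries were below all telogen libraries, the opposite order to Cdkn2c. Its log2 fold change was -2.65 (standard error 0.79, 95% interval -4.38 to -0.92, limma adjusted p = 0.0528), just outside the call. An antisense gene shares 30.7% of its exon bases.

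**Figure D3:**
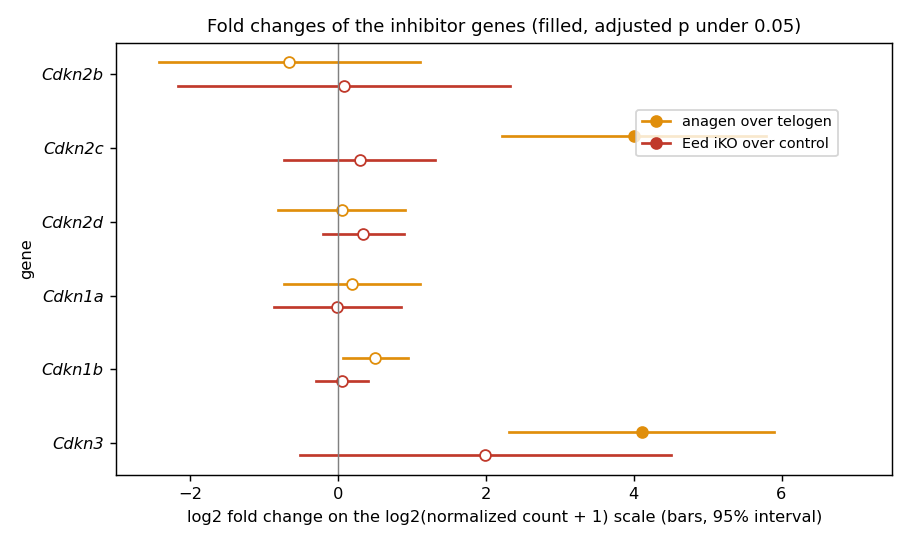
Log2 fold changes (x axis, on the log2(normalized count + 1) scale) of the 6 genes that entered both tests, with bars for the 95% interval and filled points for an adjusted p under 0.05. The Cdkn2c and Cdkn3 intervals for anagen over telogen lie above 2, and all 6 intervals for Eed iKO over control include 0.

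The promoters of Cdkn2c and Cdkn3 are shown because both genes were called higher in anagen. Within anagen their orders differed, and replicate 2 was lowest for Cdkn2c and highest for Cdkn3. RefSeq gives 2 start sites for Cdkn2c and 1 for Cdkn3 on GRCm38.p6, and each window runs from 250 bases before the start to 50 after it, 5′ to 3′ on the strand of the gene. The windows lie at chr4:109666707-109667006 and chr4:109665323-109665622 on the minus strand for Cdkn2c, and at chr14:46760291-46760590 on the plus strand for Cdkn3. Capitals mark matches on either strand to TTTGAA, the core of the cell cycle genes homology region (CHR) bound by the MuvB complex, to the E2F sites TTTCCCGC, TTTCGCGC, TTTGCCGC and TTTGGCGC, and to CCAAT, the box bound by NF-Y.
Cdkn2c upstream window: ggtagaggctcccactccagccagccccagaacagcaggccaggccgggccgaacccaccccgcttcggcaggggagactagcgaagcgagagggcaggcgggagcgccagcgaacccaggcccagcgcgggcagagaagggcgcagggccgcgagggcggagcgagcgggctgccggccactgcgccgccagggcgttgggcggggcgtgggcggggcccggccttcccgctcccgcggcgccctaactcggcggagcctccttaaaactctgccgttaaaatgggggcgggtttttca
Cdkn2c downstream window: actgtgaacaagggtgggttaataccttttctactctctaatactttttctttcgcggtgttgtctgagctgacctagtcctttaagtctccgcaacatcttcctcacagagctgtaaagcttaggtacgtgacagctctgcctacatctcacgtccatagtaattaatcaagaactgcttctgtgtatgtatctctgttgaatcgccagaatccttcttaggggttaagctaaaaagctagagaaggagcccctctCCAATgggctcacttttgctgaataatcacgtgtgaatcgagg
Cdkn3 window: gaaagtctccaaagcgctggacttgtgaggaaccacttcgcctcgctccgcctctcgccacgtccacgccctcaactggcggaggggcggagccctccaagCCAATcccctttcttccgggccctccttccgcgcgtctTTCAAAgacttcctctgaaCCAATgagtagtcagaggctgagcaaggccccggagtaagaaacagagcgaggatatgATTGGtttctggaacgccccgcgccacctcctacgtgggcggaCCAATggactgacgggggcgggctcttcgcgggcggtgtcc
The Cdkn3 window held 1 CHR match, which reads TTCAAA on this strand, from -111 to -106 relative to the start, and 4 CCAAT matches that begin at -149, -92, -34 and 10. The Cdkn2c windows held no CHR match, and a single CCAAT match from 8 to 12 after the downstream start. No E2F match was found in these 3 windows. Over all 32851 RefSeq promoter windows of this length, 17.9% held a CHR match, 37.4% a CCAAT match and 2.26% an E2F match, so matches to CHR and CCAAT are common. Among the other inhibitor genes, Cdkn2b, which was not called, had a CHR match from -161 to -156, and the upstream window of Cdkn2a, which was not tested, had the E2F match TTTCCCGC from -99 to -92. CCAAT matches also stood in the windows of genes that were not called, 3 in Cdkn1b and 1 in Cdkn2d, and 1 stood in another window of Cdkn2a.

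Most kinases and cyclins that the inhibitors act on were higher in anagen. Among 5 targets of the INK4 proteins, 3 were called higher in anagen, and the list had a median log2 fold change of 1.503. Of all genes tested, 7.22% were called higher in anagen, the share to set beside each list here and below. Cdk4 had normalized counts of 330, 667.1 and 721 in telogen and 2275, 1595 and 1592 in anagen (log2 fold change 1.73, 95% interval 1.06 to 2.40). For Ccnd1, cyclin D1, the values were 1020, 1862 and 1026 in telogen and 4497, 3557 and 3260 in anagen (log2 fold change 1.58), and for Ccnd2, cyclin D2, the log2 fold change was 1.503. In each of these 3 genes the anagen libraries all exceeded the telogen libraries. Of all genes tested, 33.3% did not overlap between the phases, in either direction. Cdk6 had a log2 fold change of 0.55 (limma adjusted p = 0.166) and Ccnd3 of -0.01 (limma adjusted p = 0.985), and neither was called.

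Of 7 targets of the CIP proteins, 6 were called higher in anagen and Cdk2 was not (log2 fold change 1.01, limma adjusted p = 0.105). Ccne1, cyclin E1, was the least stable of the 6, its call lost in 8 of 11 alternatives, among them the omission of each library except telogen replicate 3. The largest changes were those of the mitotic kinase gene Cdk1 (log2 fold change 5.33) and of its partners Ccnb1 (4.98) and Ccnb2 (4.91). Cdk1 had normalized counts of 15.6, 10.4 and 10.9 in telogen and 718.9, 787.6 and 259.2 in anagen. Among 7 genes for the turnover of p27, the Skp2 ligase cofactor Cks1b (log2 fold change 1.12) and its relative Cks2 (3.25) were called higher in anagen, the former a call lost without any 1 of the anagen libraries or telogen replicate 3. The 5 not called were Skp2 itself (log2 fold change 1.32, limma adjusted p = 0.0604), the ligase subunits Cul1 (0.05), Skp1a (0.49) and Rbx1 (-0.09), and Fbxw7 (0.50), which encodes the cyclin E ligase subunit.

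Downstream of the kinases, 5 of 13 pocket protein and E2F genes were called higher in anagen, led by E2f8 (log2 fold change 5.04), E2f1 (3.13) and E2f2 (2.43). All 8 proliferation genes were called higher, led by Bub1 (5.90), Mki67 (5.10) and Top2a (4.92), and 1 of 8 DREAM and MuvB genes was, Foxm1 (3.84), which encodes a mitotic activator. In these 3 lists no gene was called lower. Single libraries decided the calls of E2f2 and the proliferation gene Plk1, lost without anagen replicate 1, and of Foxm1, lost without anagen replicate 1 or 3. Without an intensity trend, the calls of Plk1, Foxm1 and the proliferation gene Pcna were lost. Among the genes that act on the inhibitor genes, of 13 p53 axis genes tested, Btg2 (1.20) and Trp53 (1.16) were called higher, of 13 genes for TGF-beta inputs Foxo1 (1.06) was, and of 13 repressors and activators of the Ink4a-Arf locus 0 were called by limma and 2 had an unadjusted p under 0.05. Btg2 and Trp53 were both lost without anagen replicate 1 and without anagen replicate 2, and Trp53 also in 5 more of the 11 alternatives. The calls of Btg2 and Foxo1 were lost without an intensity trend. The medians of these 3 lists were 0.22, 0.28 and 0.14 on the log2 scale. Of all genes tested, 7.22% were called higher in anagen. The few calls in these 3 lists and the 1 among the DREAM and MuvB genes were not read as results about the lists.

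The proliferation genes, like Cdkn3, were higher in each anagen library than in any telogen library. The mean log2(normalized count + 1) of the 8 proliferation genes was 5.75, 5.73 and 6.01 in telogen and 10.2, 9.74 and 9.37 in anagen. Within anagen the orders differed, since replicate 1 was highest for the proliferation genes and replicate 2 for Cdkn3. Markers of other cells also moved with the phase. The summed normalized count of 6 melanocyte markers was 108.4 to 159.6 in telogen and 441.2 to 810.7 in anagen, with Dct called higher, Mlana at 0 in 3 of the 6 hair cycle libraries and Kit at 0 in 1. Of 6 fibroblast markers, Dcn and Col1a1 were called higher in anagen, the sums were 316.2 to 648.8 in telogen and 469.5 to 627.9 in anagen, and Col3a1, Dcn or Lum was at 0 in 3 libraries. The mean log2(normalized count + 1) of the 6 separated the phases, at 3.05 to 3.48 in telogen and 4.30 to 5.11 in anagen. Of 7 hair matrix markers, Krt25 was called higher and Msx2 lower, the sums were 785.7 to 860.5 in telogen and 610.1 to 704.2 in anagen, and Shh was at 0 in 1 library. Their mean log2(normalized count + 1) ran the other way from the sums, at 4.16 to 5.56 in telogen and 5.63 to 6.22 in anagen, with a median log2 fold change of 0.79. The calls of Dcn and Krt25 were lost without anagen replicate 1 or 2, and that of Col1a1 without anagen replicate 3. No immune or endothelial marker was called, with sums of at most 432.3 and 134.5, Lyz2 at 0 in 5 libraries and Cdh5, Kdr, Emcn, Cd3e or Cd74 at 0 in some. The part of these cells in the Cdkn2c and Cdkn3 values was not tested.

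**Figure D4:**
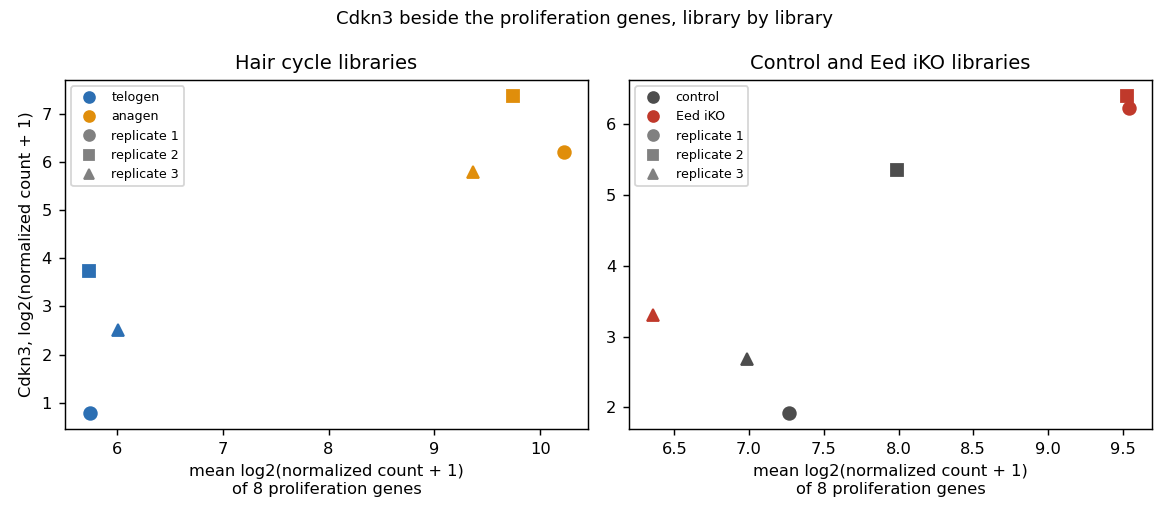
Log2(normalized count + 1) of Cdkn3 (y axis) against the mean log2(normalized count + 1) of the 8 proliferation genes (x axis) in each hair cycle library (left) and each control or Eed iKO library (right). The 3 anagen libraries are apart from the 3 telogen libraries on both axes, and Eed iKO replicates 1 and 2 lie above the other 4 libraries on both axes of the right panel.

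The genes whose centred log2 profiles over the 6 hair cycle libraries lay nearest to Cdkn2c were Fam20a, Tmem98 and Kcnd3, at root mean square distances of 0.45, 0.50 and 0.63. Nearest to Cdkn3 were Nell1, Shcbp1 and Il1r2, at 0.48, 0.54 and 0.58. The neighbours of the inhibitor genes on the chromosome were read as well. Faf1, at 9.4 kb from Cdkn2c, had a log2 fold change of 0.23 (limma adjusted p = 0.732), and Cnih1, at 3.9 kb from Cdkn3, of 0.26 (limma adjusted p = 0.625), so the nearest genes were not called beside the called members. The single neighbour called was Srsf3, a splicing factor gene at 47.6 kb from Cdkn1a (log2 fold change 0.92, limma adjusted p = 0.00978), a call lost without anagen replicate 1. Around the locus of Cdkn2a and Cdkn2b, Mtap (log2 fold change -0.02) and Dmrta1 (-0.24) were not called, nor were Gpr19 (-0.02) and Apold1 (-0.90) beside Cdkn1b, Kri1 (0.38) and Ap1m2 (-0.65) beside Cdkn2d, Bmp4 (0.10) on the other side of Cdkn3, and Slc22a18 (-0.65) beside Cdkn1c. Rab44, 4930522H14Rik and Kcnq1 did not pass the filter.

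The levels of the inhibitor genes could be set against each other only per length, as normalized counts per kb of the median coding transcript. Cdkn1a held 54.7% of the summed level of the 7 genes in telogen and 46.4% in anagen. It reached 964.2 ± 612.6 (SD, n = 3) per kb in telogen, followed by Cdkn1b with 461.2 ± 70.5 and Cdkn2d with 316.1 ± 171.3, and these 3 genes overlapped with their neighbour in the order. In telogen Cdkn2b (9.89 ± 5.20), Cdkn2c (7.44 ± 7.98) and Cdkn3 (4.13 ± 4.13) overlapped far below them. In anagen the first 3 places were the same, with 966.3 ± 264.6, 649 ± 42.8 and 311.6 ± 99.1 per kb and no overlap between neighbours. Cdkn2c (83.1 ± 23.3) and Cdkn3 (67.7 ± 41.3) then overlapped with each other and stood above Cdkn2b (6.00 ± 3.27). With the longest coding transcript instead, Cdkn1b fell to 242.5 per kb in telogen, below Cdkn2d at 280.8.

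**Figure D5:**
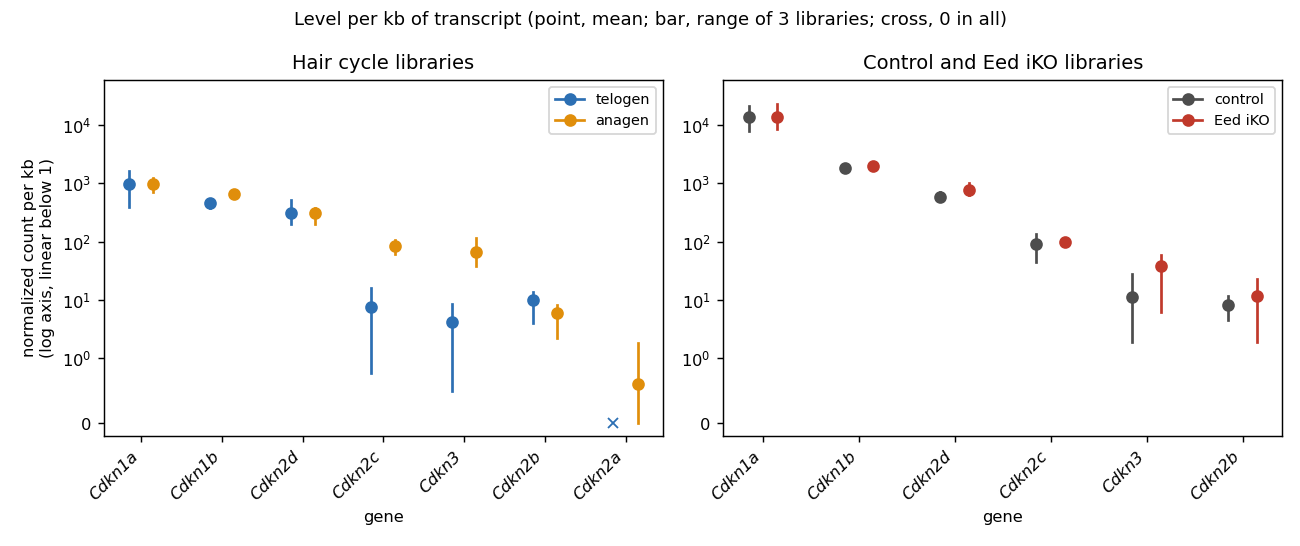
Normalized count per kb of the median coding transcript (y axis, log scale, linear below 1) for each inhibitor gene (x axis), with points for the mean and bars for the range of the 3 libraries of a group. Cdkn1a, Cdkn1b and Cdkn2d come first in each group, and Cdkn2c and Cdkn3 lie about a decade higher in anagen than in telogen. The panels were normalized separately.

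Among the control and Eed iKO libraries the order was alike. Cdkn1a held 84.2% of the summed level of 6 genes in control and 83% in Eed iKO, with 13759 ± 6656 (SD, n = 3) and 14020 ± 8148 per kb. Cdkn1b (1872 ± 249.8 in control), Cdkn2d (592.8 ± 96) and Cdkn2c (89.5 ± 44.3) followed with no overlap between neighbours, and Cdkn3 (11.2 ± 14.5) overlapped with Cdkn2b (8.21 ± 3.47). Among all genes with a length, Cdkn1a stood at the 98.5 percentile in control, and at the 90.9 percentile in telogen. The hair cycle and Eed iKO libraries were normalized separately, and their levels were not tested against each other.

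The second comparison asked whether inhibitor genes, among them loci that Polycomb is known to repress, differed between Eed iKO and control HFSCs. Genotype and RU-486 treatment differ together between these groups. No inhibitor gene was called. All 6 with a row passed the filter, 0 had an adjusted p under 0.05 by limma, 0 had an unadjusted p under 0.05, and 0 were called by edgeR or DESeq2 on the recovered reads, which called 0.0333% and 4.48% of all genes. DESeq2 gave no adjusted p for Cdkn2b and Cdkn3, so it could call neither. The control and Eed iKO values overlapped for each of the 6. Few genes were called in all, 4 of 15008 or 0.0267%, while the thresholds of the methods, here a log2 fold change beyond 1.5, were passed by 1.75% of genes and by 0 of the 6, and 20.2% of all genes did not overlap. The median log2 fold change over the 6 genes was 0.19, and over all genes it was -0.001.

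Cdkn2b, the 1 gene here of the Polycomb-repressed locus, was low in both groups. It had 23, 11 and 7 reads in control and 14, 2 and 32 reads in Eed iKO, or normalized counts of 16, 11.9 and 6.35 and of 15.1, 2.66 and 31.6. Eed iKO held both the lowest and the highest library. The log2 fold change of 0.08 had a standard error of 1.02 and a 95% interval from -2.17 to 2.33 (limma adjusted p = 0.982), an interval that holds a change of a few-fold in either direction. Its neighbours Mtap (log2 fold change 0.47, limma adjusted p = 0.551) and Dmrta1 (0.49, limma adjusted p = 0.713) were not called.

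Cdkn1b, Cdkn2d and Cdkn2c gave narrower intervals than Cdkn2b. Cdkn1b had normalized counts of 5013, 3833 and 4594 in control and 4981, 3996 and 5024 in Eed iKO, nearly the same set of values. Its log2 fold change was 0.06 (standard error 0.16, 95% interval -0.29 to 0.41, limma adjusted p = 0.895), the tightest of the 6. Cdkn2d had 711.8, 651 and 885 in control and 822.6, 810.1 and 1261 in Eed iKO (log2 fold change 0.34, 95% interval -0.20 to 0.89, limma adjusted p = 0.541). Cdkn2c had 79.8, 238.3 and 162.3 in control and 175.3, 188.6 and 173 in Eed iKO, where the 3 libraries were closer together (log2 fold change 0.29, 95% interval -0.73 to 1.32, limma adjusted p = 0.813). The relative Cdkn1c had a log2 fold change of 0.02 (95% interval -0.76 to 0.80, limma adjusted p = 0.985).

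Cdkn1a differed between replicates far more than between groups. It had normalized counts of 18747, 12420 and 32501 in the control libraries and 13243, 15559 and 36078 in the Eed iKO libraries, in the order of their replicate numbers, so replicate 3 was highest in both. Between the groups it was -0.01 (standard error 0.39, 95% interval -0.87 to 0.85, limma adjusted p = 0.995) on the log2 scale, and it moved from -0.45 to 0.35 as single libraries were left out. Replicate 3 was also highest in both groups for the 7 epidermal and sebaceous markers, with sums of 18333, 13610 and 52738 in control and 20865, 10455 and 68218 in Eed iKO, where 0 of 7 were called and none was at 0. Their part in the Cdkn1a values was not tested. The 14 p53 axis genes, a list without Cdkn1a itself, summed to 68471, 68868 and 99666 in control and 61362, 70537 and 90022 in Eed iKO, highest in replicate 3 of both groups. The mean log2(normalized count + 1) of this list, less weighted to abundant genes, was 10.6, 10.5 and 10.7 in control and 10.5, 11.0 and 10.8 in Eed iKO, where replicate 2 was highest.

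Cdkn3 had the largest log2 fold change of the 6 and the widest interval. It had 4, 37 and 6 reads in control and 69, 63 and 9 reads in Eed iKO, or normalized counts of 2.78, 40.1 and 5.44 and of 74.2, 83.7 and 8.90. Eed iKO replicates 1 and 2 were above every control library, and Eed iKO replicate 3 was below control replicate 2. The fitted log2 fold change was 1.99 (standard error 1.14, 95% interval -0.52 to 4.51), with a limma adjusted p of 0.440. It went to 2.997 without Eed iKO replicate 3 (adjusted p = 0.206) and to 3.01 without control replicate 2 (adjusted p = 0.341), and it was 1.29 without control replicate 1. The limma p was 0.0208 without Eed iKO replicate 3 and 0.0266 without control replicate 2, so that Cdkn3 then passed the thresholds of the methods, as 2.92% and 2.28% of all genes did.

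The proliferation genes split the same libraries. Their mean log2(normalized count + 1) was 7.27, 7.99 and 6.99 in control and 9.54, 9.53 and 6.36 in Eed iKO, with Bub1 at 0 in Eed iKO replicate 3. Of the 8, 0 were called by limma, 1 had an unadjusted p under 0.05, and the median log2 fold change was 1.10. Without Eed iKO replicate 3, limma called Mki67 and Top2a higher in Eed iKO and 7 of the 8 had an unadjusted p under 0.05. Over all genes, limma then called 188 of 15386, while with every library it called 4. The share of all genes under this unadjusted p is not given, so the 7 of 8 were not read as a result about the list. No other omission gave a call among the 8. The part of the proliferation genes in the Cdkn3 values was not tested. Among the other markers, the hair matrix sums were 3901 to 5711 in control and 4045 to 4322 in Eed iKO, and Cd207, a Langerhans cell marker, was at 0 in all control libraries and in none of the Eed iKO libraries. Lyz2, a myeloid marker, was at 0 in 4 of these 6 libraries, and the immune sums were 248.1 to 462.4 in control and 382.6 to 794.6 in Eed iKO. The mean log2(normalized count + 1) did not overlap between the groups for the immune markers, at 3.67 to 4.28 in control and 4.84 to 5.99 in Eed iKO. Nor did it for the melanocyte markers, at 3.16 to 4.404 and 4.69 to 5.33. No gene of either list was called in the main fit. Without an intensity trend, limma called Cd207 higher in Eed iKO, and it called 2 genes in all. The part of immune cells and melanocytes in the Cdkn3 values was not tested. Melanocyte sums were 286.5 to 522.1 in control and 338.6 to 542.8 in Eed iKO, fibroblast sums 1688 to 3279 and 1293 to 1930, and endothelial sums 428.1 to 634.7 and 338.6 to 651.5, with Mlana, Tyrp1, Col3a1, Lum or Emcn at 0 in some libraries.

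Of 87 genes in the 9 pathway lists tested, 0 were called between control and Eed iKO by limma or edgeR and 14 had an unadjusted p under 0.05 in limma. That number ran from 6 to 27 as single libraries were left out, with 27 and the calls of Mki67 and Top2a without Eed iKO replicate 3. The share of all genes under this unadjusted p is not given here, so these numbers were not read as a result about the lists. DESeq2 on the recovered reads called 4 of the 87 genes higher in Eed iKO, while it called 2.96% of all genes higher. These were Cdk1, E2f1, Id1 and Rbx1, which are named here after their values were seen. Among the INK4 targets, Ccnd1 had normalized counts of 4097, 4084 and 4044 in control and 5874, 7157 and 4650 in Eed iKO, with no overlap (log2 fold change 0.51, 95% interval 0.14 to 0.88, limma adjusted p = 0.196). Cdk4 (0.34), Cdk6 (-0.03), Ccnd2 (0.20) and Ccnd3 (-0.19) had smaller log2 fold changes, all with adjusted p values above that of Ccnd1. Among the genes for p27 turnover, the values did not overlap for Rbx1 (log2 fold change 0.60, limma adjusted p = 0.150), Cks1b (0.68, adjusted p = 0.310), Cks2 (0.76, adjusted p = 0.479) and Skp2 (-0.67, adjusted p = 0.247). They overlapped for Cul1 (0.02), Skp1a (-0.12) and Fbxw7 (-0.01). Of all genes tested, 20.2% did not overlap between control and Eed iKO. Near the other inhibitor genes, Srsf3 (0.20), Rab44 (2.20), Gpr19 (-0.07), Apold1 (-0.07), Faf1 (0.19), Kri1 (0.38), Ap1m2 (0.29), Bmp4 (0.65), Cnih1 (0.59) and Slc22a18 (-0.04) were not called.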

How the data were processed

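RNA of sorted HFSCs was amplified from 10 ng with the Ovation RNA-seq System V2 and sequenced in 12 libraries, 3 per group, with groups and replicate numbers taken from the labels. Per the methods, the authors aligned reads to Gencode vM20 transcripts (mm10) with Kallisto (0.42.5 in the submitters' processing notes) and compared groups with DESeq2. The deposited signal of a gene is its estimated number of reads scaled by a DESeq2 size factor for each library, and it is given as the normalized count. The deposited log2 fold changes with their standard errors, the deposited score (the Wald statistic) and the deposited p-value columns are comparisons by the authors and were not used. For control and Eed iKO, 100% of values were whole multiples of 1 constant, within a tolerance of 0.05 reads, and for anagen and telogen 32.6% to 37.6% were, so counting error can be read only for the former.

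Each table was fitted on its own with limma 3.58.1 (R 4.3.3) on log2(normalized count + 1) with an intensity trend, over the genes that passed filterByExpr of edgeR 4.0.16 at a count minimum of 10, and p-values were adjusted over all genes tested (Benjamini-Hochberg). A gene was called at an adjusted p under 0.05. This scale understates the change of low genes. Fold changes are Eed iKO over control and anagen over telogen. Counts of list genes at an unadjusted p under 0.05 alone are given without the share of all genes. The procedure was tested on simulated data. Alternatives were a pseudocount of 0.1, no filter, a block for the replicate number, the omission of single libraries, TMM scaling, no intensity trend, the thresholds of the methods, and edgeR or DESeq2 1.42.0 on recovered reads.

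The members and all lists were chosen with earlier results of these data known. The genes named are the members, Cdkn1c, Eed, every gene of the INK4 target and p27 turnover lists, from each other pathway list the 3 called genes with the largest absolute log2 fold change, the nearest protein-coding neighbour on either side, and for each member called in the hair cycle the 3 genes with the nearest profile. Marker genes are named where called or at 0, Plk1 and Pcna for their lost calls, and Krt14 for its calls under alternatives. Coordinates, exon overlaps and lengths are from GENCODE vM21 (GRCm38), which matched 17879 of 17885 and 21915 of 21915 genes. Promoters are from RefSeq (GRCm38.p6), which gave windows for 7 of the 8 inhibitor genes, Cdkn1c included. Cdkn2a was not analysed in the control and Eed iKO libraries.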

Additional observations from a re-analysis of the deposited data

How the results depend on the processing

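The number of inhibitor genes called between control and Eed iKO was 0 under every alternative run, with Cdkn2b and Cdkn3 not open to a call by DESeq2. Between telogen and anagen it was 2 under every alternative except for 2 omitted libraries, where it was 1 (range 1 to 2): Cdkn2c was lost without anagen replicate 1 and Cdkn3 without anagen replicate 2. The direction of both genes was kept in all 11 alternatives, with log2 fold changes of 3.04 to 4.87 for Cdkn2c and 3.33 to 4.81 for Cdkn3. The number of all genes called moved more. For Eed iKO it was 4, and it came to 2 without an intensity trend, 673 with DESeq2, 263 at the thresholds of the methods, and 1 to 188 with a library left out, the 188 without Eed iKO replicate 3. For the hair cycle it was 1556, and it came to 842 without an intensity trend, 686 at the thresholds of the methods and 590 to 1534 with a library left out, the 590 without anagen replicate 1. The cause was not tested.

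Among genes that were not called, the sign of the log2 fold change turned for Cdkn1a between Eed iKO and control with edgeR (0.0359) and DESeq2 (0.0258). With a library left out, the ranges were -0.45 to 0.35 for Cdkn1a, -0.0481 to 0.17 for Cdkn1b, -0.61 to 0.97 for Cdkn2b and -0.14 to 0.65 for Cdkn2c in Eed iKO over control, and -0.35 to 0.67 for Cdkn1a and -0.21 to 0.46 for Cdkn2d in anagen over telogen. DESeq2 gave no adjusted p for Cdkn2b and Cdkn3.

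The replicate number as a block called 424 genes for Eed iKO and 1224 for the hair cycle, with 0 and 2 inhibitor genes among them. Of the 87 pathway genes it called 3 for Eed iKO, namely E2f1, Id1 and Top2a. The labels do not say that a number marks a shared litter or day. Deviations of same-numbered libraries correlated at 0.039, 0.068 and 0.193 in the Eed iKO table and at -0.035, -0.071 and -0.029 in the hair cycle table, so the numbers were not taken to pair the libraries, and not every library correlated best with its own number.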
